A study of Mus musculus with 2 samples.

Results

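The translation initiation and elongation factors of the mouse adrenal gland were described from long-read RNA sequencing. They were taken as the protein-coding genes of the annotation whose symbols begin with Eif1 to Eif6, Eef1 or Eef2 and that had at least 1 read in either library. This rule gave 63 genes of the 13668 protein-coding genes with reads, out of 68 such symbols in the annotation. The other 5 symbols, Eif5a2, Eif4e1b, Eif4ebp3, Eif2s3y and Eef1akmt3, had 0 reads in both libraries, which allows up to 3 reads, or 7.55 CPM in replicate 1 and 4.21 CPM in replicate 2. CPM is the number of a gene's reads per 1000000 reads on annotated mouse genes in that library. A long read covers a transcript or a part of it and is counted once whatever its length, so levels were not divided by transcript length.

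Both libraries came from total RNA of adrenal glands of female mice aged 25 days, with no treatment. The animals were B6CASTF1/J, an F1 hybrid whose parental strains are C57BL/6J and CAST/EiJ. The labels call them biological replicates 1 and 2 of a single group, so no condition was compared. The tissue descriptions name a different animal for each library, but the library descriptions name the same one for both. Replicate 1 held 397176 reads on annotated mouse genes and replicate 2 held 712032. The defining genes of the cortex, from Cyp11a1 to Mc2r, were read in both libraries at a summed level of 77502 and 69724 CPM, and all 8 chromaffin cell genes of the medulla were read as well. A test between 2 libraries measures counting error only and compares those libraries, not conditions, and in whole tissue fewer cells of a type and less RNA per cell cannot be told apart.

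Translation begins when eIF1, eIF1A, eIF3 and eIF5 assemble on the small ribosomal subunit with eIF2, which carries the initiator tRNA. The eIF4F complex, made of the cap-binding protein eIF4E, the scaffold eIF4G and the RNA helicase eIF4A, loads that assembly onto the capped end of the mRNA. In elongation, eEF1A brings aminoacyl-tRNA to the ribosome, the eEF1B complex recharges eEF1A with GTP, and eEF2 moves the ribosome along by 1 codon at a time. Many of these factors have a second gene. Eef1a2 is known as the eEF1A form of neurons, heart and skeletal muscle, and Eef1a1 as the form of most other tissues.

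The sequences below carry the paralog and splice choices that the reads could resolve. They are from the GENCODE M21 transcripts on mm10, in the sense of the mRNA. The first 90 coding bases of the eEF1A paralogs are shown because the paralog of a read is decided by such differences. Capitals mark the 15 bases at which they differ.
Eef1a1: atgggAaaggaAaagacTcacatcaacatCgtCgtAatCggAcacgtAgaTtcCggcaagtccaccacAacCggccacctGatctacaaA
Eef1a2: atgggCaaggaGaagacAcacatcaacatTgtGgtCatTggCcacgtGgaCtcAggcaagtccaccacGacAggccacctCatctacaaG
Over the whole coding sequence, 1386 bases in Eef1a1 and 1389 in Eef1a2, 80.1% of the aligned bases were identical.

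The splice choices are shown with 15 bases of the exon on either side. In Eif4h and Eef1d the capitals are a coding exon that some transcripts carry and others skip, at chr5:134624441-134624500 (minus strand) and chr15:75900691-75900762 (minus strand). In Eif4a2 the capitals are 3 bases that one transcript gains by using an acceptor at position 23108585 of chromosome 16 (plus strand) in place of 23108588.
Eif4h exon of 60 bases: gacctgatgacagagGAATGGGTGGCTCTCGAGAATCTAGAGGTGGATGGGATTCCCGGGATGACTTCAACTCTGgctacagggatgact
Eef1d exon of 72 bases: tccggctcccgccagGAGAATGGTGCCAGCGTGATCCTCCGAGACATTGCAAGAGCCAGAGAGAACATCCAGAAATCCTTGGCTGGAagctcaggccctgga
Eif4a2 with the 3 bases: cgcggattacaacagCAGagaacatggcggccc
Eif4a2 without them: cgcggattacaacagagaacatggcggccc

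The 63 genes held 5426 reads in replicate 1 and 8802 in replicate 2, which was 1.37% and 1.24% of the reads on annotated genes, 1.30% ± 0.092 (SD, n = 2). Their levels spanned a wide range around a median of 102.3 CPM. The 4 highest genes, Eef2, Eif1, Eef1a1 and Eif5a, took 38.5% of these reads in replicate 1 and 37.8% in replicate 2, and the 12 highest genes took 62.7% and 59.9%. Across the 63 genes the level and the length of the annotated transcript with the longest coding sequence had a Spearman's rho of -0.25, given as a description across genes that share both libraries.

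**Figure D1:**
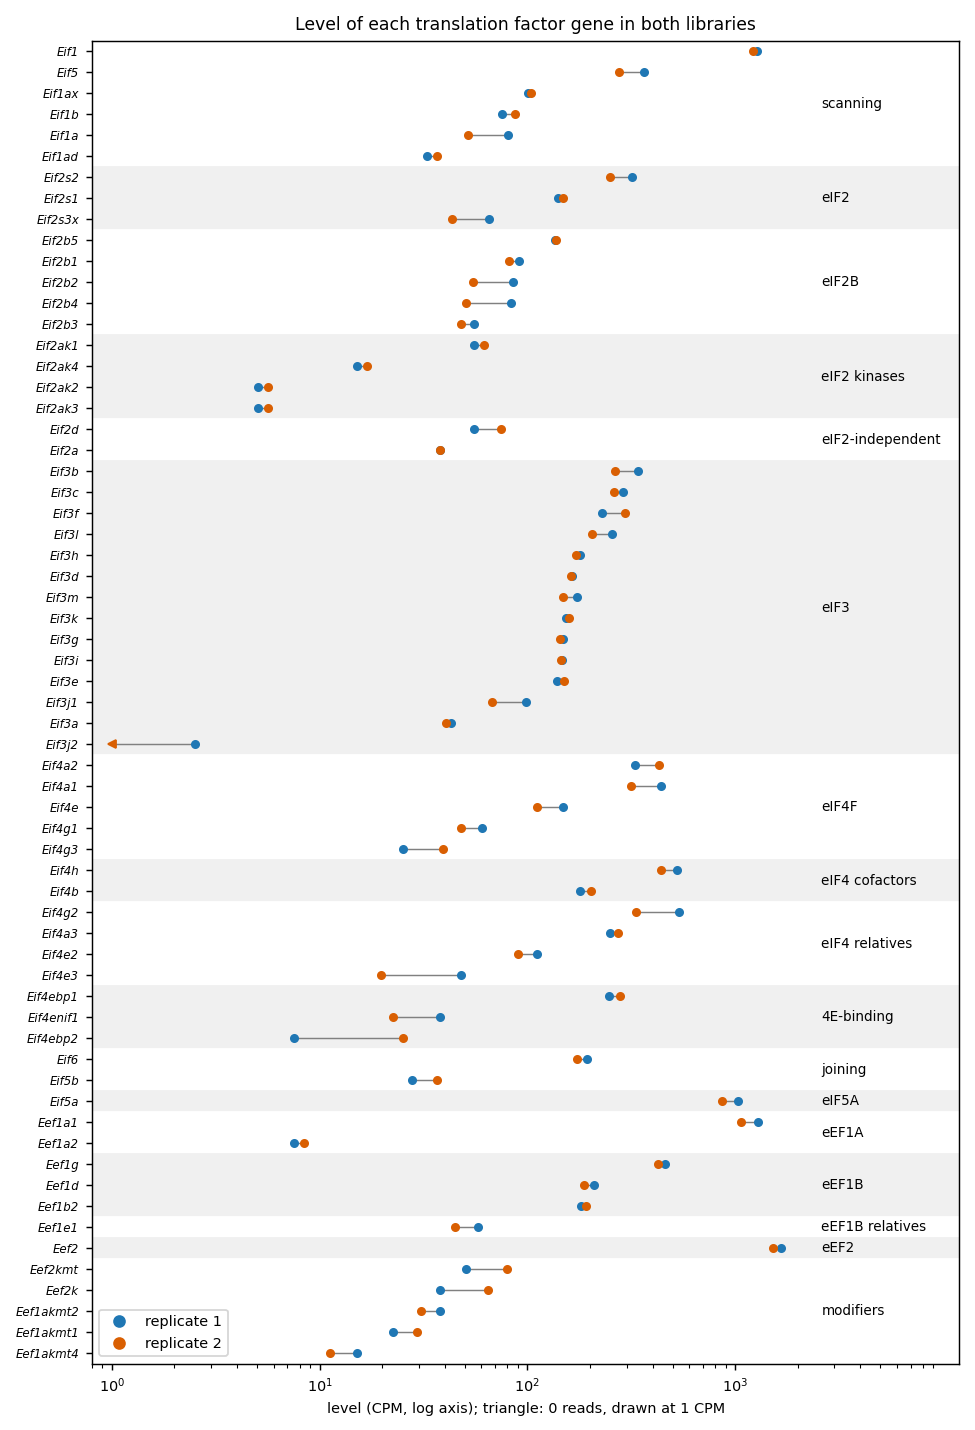
Level of each of the 63 genes in CPM (log axis) in replicate 1 (blue) and replicate 2 (orange), grouped by complex or role, with a grey line joining the libraries. Eef2, Eif1, Eef1a1 and Eif5a stand at the right, most eIF3 subunits lie close together, and Eef1a2, Eif2ak2, Eif2ak3 and Eif3j2 are at the left.

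Among the genes of scanning and start codon choice, Eif1, whose product keeps the small subunit open until a start codon is met, had 1274 CPM in replicate 1 and 1223 in replicate 2. It ranked second of the 63, and its paralog Eif1b had 75.5 and 87.1 CPM. Eif5, which triggers GTP hydrolysis by eIF2 at the start codon, had 365.1 and 275.3 CPM. Eif1ax and Eif1a, the 2 genes for eIF1A, had 100.7 and 103.9 CPM and 80.6 and 52.0 CPM. Eif1ad, whose role in scanning was not examined here, was the lowest of the 6 genes placed in this group, at 32.7 and 36.5 CPM. Eif1 thus stood well above every other gene of the group in each library.

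The subunits of eIF2 were read unequally. Eif2s2, the beta subunit, had 317.2 CPM in replicate 1 and 248.6 in replicate 2. Eif2s1, the alpha subunit on which the stress kinases act, had 141.0 and 148.9 CPM. Eif2s3x, the X-linked gene of the gamma subunit, had 65.5 and 43.5 CPM, while its Y-linked partner Eif2s3y had no read in these female animals. The order beta, alpha, gamma held in each library without overlap.

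The 5 subunits of eIF2B, which reloads eIF2 with GTP, ranged in mean level from 51.6 CPM for Eif2b3 to 136.8 CPM for Eif2b5, the catalytic subunit, a 2.65-fold range. Of the 4 kinases that phosphorylate eIF2, the haem-regulated kinase Eif2ak1 was the highest at 55.4 and 61.8 CPM. The amino-acid sensor Eif2ak4 had 15.1 and 16.9 CPM. The double-stranded RNA sensor Eif2ak2 and the endoplasmic reticulum sensor Eif2ak3 each had 2 and 4 reads, near the 3 reads that a count of 0 allows. Eif2d and Eif2a, which can deliver tRNA without eIF2, had mean levels of 64.9 and 37.8 CPM.

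The subunits of eIF3, the large scaffold that holds the initiation complex together, were the largest group by reads, with 2362 CPM summed over 14 genes in replicate 1 and 2211 in replicate 2. Eif3b had 342.4 and 264.0 CPM, Eif3c 289.5 and 259.8 CPM, and Eif3f 229.1 and 294.9 CPM. Most of the others lay in a narrow band. From Eif3d (162.6 CPM ± 1.52, SD, n = 2) through Eif3m, Eif3k, Eif3g and Eif3i to Eif3e (144.4 CPM ± 8.34), neighbours in the order of level overlapped between the libraries, except Eif3k and Eif3g. Leaving Eif3j2 aside, the 13 subunits ranged from 41.8 to 303.2 CPM, a 7.26-fold range with a coefficient of variation of 42.4%.
The lowest of these 13 was Eif3a, the largest subunit, with 17 reads in replicate 1 and 29 in replicate 2. Eif3j1 had 39 and 48 reads and its paralog Eif3j2 had 1 and 0. The coding sequences of Eif3j1 and Eif3j2 were identical at every aligned base outside gaps, so reads of that pair can be split between the genes by chance of alignment and Eif3j2 is uncertain.

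The parts of eIF4F differed strongly in level. The helicase genes Eif4a1 and Eif4a2 had mean levels of 376.3 CPM ± 87.3 and 379.8 CPM ± 70.7 (SD, n = 2), which did not differ beyond their spread. With the reads of a near copy of Eif4a1, Eif4a-ps4, counted as Eif4a1, its level was 674.8 and 512.6 CPM, above that of Eif4a2 (329.8 and 429.8) in each library, so the order of these 2 genes rests on how such reads are assigned. Eif4e, the cap-binding protein, had 148.5 and 111.0 CPM. The scaffolds were low, with 60.4 and 47.8 CPM for Eif4g1 and 25.2 and 39.3 CPM for Eif4g3. Of the helicase cofactors, Eif4h had 526.2 and 439.6 CPM and Eif4b had 178.8 and 202.2 CPM.
The relatives of eIF4F included Eif4g2, a scaffold without the eIF4E-binding part, at 536.3 CPM in replicate 1 and 334.3 in replicate 2. Eif4a3, the helicase of the exon junction complex, had 249.3 and 272.5 CPM, and the cap-binding relatives Eif4e2 and Eif4e3 had means of 100.3 and 33.7 CPM. Among the repressors that bind eIF4E, Eif4ebp1 was the highest at 246.7 and 278.1 CPM. Eif4enif1, which carries eIF4E into the nucleus, had 37.8 and 22.5 CPM. Eif4ebp2 was the lowest of that group with 3 and 18 reads.

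Of the factors that act in subunit joining, Eif6, which keeps the large subunit apart, had 193.9 and 174.1 CPM, and Eif5b, the joining GTPase, had 27.7 and 36.5 CPM. Eif5a, which relieves stalled ribosomes, had 1027 CPM in replicate 1 and 865.1 in replicate 2. Its paralog Eif5a2 had no read.

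Elongation factors held some of the highest levels. Eef2 was the highest of all 63 genes, at 1667 and 1513 CPM, and ranked 42nd among the 16400 annotated genes with reads. Eef1a1 had 1287 and 1070 CPM, overlapping the level of Eif1 between the libraries. In the eEF1B exchange complex Eef1g had 458.2 and 424.1 CPM, Eef1d 209.0 and 186.8 CPM, and Eef1b2 181.3 and 192.4 CPM. Eef1g was therefore above both other subunits in each library, while Eef1d and Eef1b2 overlapped. Eef1e1, a relative found with the tRNA synthetases, had 57.9 and 44.9 CPM.
The enzymes that modify elongation factors were all low. Eef2kmt, which methylates eEF2, had 50.4 and 80.1 CPM, and Eef2k, the kinase that inhibits eEF2, had 37.8 and 64.6 CPM. The lowest was Eef1akmt4, a methyltransferase of eEF1A, with 6 and 8 reads.

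Almost all eEF1A reads came from Eef1a1. Eef1a1 (chr9:78478449-78489151, minus strand) had 511 reads in replicate 1 and 762 in replicate 2, and Eef1a2 (chr2:181147653-181157014, minus strand) had 3 and 6 reads. The share of Eef1a2 was 0.58% in replicate 1 (Wilson 95% interval 0.20 to 1.70) and 0.78% in replicate 2 (0.36 to 1.69), 0.68% ± 0.14 (SD, n = 2). All 9 Eef1a2 reads were on its annotated transcript. Markers of skeletal muscle and of neurons are given beside Eef1a2, which had 7.55 and 8.43 CPM, and no list was made for heart. The 8 skeletal muscle genes summed to 7.55 and 5.62 CPM with Acta1, Ckm, Myh4, Myh1, Tnnt3 and Pvalb at 0, and the 6 neuronal genes summed to 50.4 and 57.6 CPM with Map2 at 0. Their part in the Eef1a2 reads was not tested.

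Related genes were compared in 12 pairs, and 10 could be tested between the libraries with Fisher's exact test (two-sided, Benjamini-Hochberg adjustment over the 10). Only the pair of helicase genes passed a threshold of 0.05. Eif4a1 had 174 reads in replicate 1 and 224 in replicate 2, and Eif4a2 had 131 and 306. Eif4a2 thus held 43.0% of the pair in replicate 1 (37.5 to 48.6) and 57.7% in replicate 2 (53.5 to 61.9), so with the reads as assigned the majority gene was not the same one in the 2 libraries (adjusted p = 0.00041, Fisher's exact test). The 2 genes encode closely related helicases, with 78.2% identical coding bases outside gaps.

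The level of Eif4a1 is uncertain because of a near copy. The processed pseudogene Eif4a-ps4 (chr1:60703932-60705149, plus strand), which is not protein-coding and not among the 63 genes, was 99.9% identical to Eif4a1 over its 1218 bases. It had 94 reads in replicate 1 and 141 in replicate 2, all on its single-exon annotated transcript. These were 35.1% and 38.6% of the reads on Eif4a1 and Eif4a-ps4 together, and such reads cannot be told apart with certainty at that identity. With the pseudogene counted as Eif4a1, an alternative added after the data were seen, Eif4a2 held 32.8% (28.4 to 37.6) and 45.6% (41.9 to 49.4), so Eif4a1 was then the more read gene in both libraries. The difference between libraries still passed the threshold (Fisher's exact test, p multiplied by the 10 pairs 0.00038). In the whole set, 11 pseudogenes with reads matched 9 of the 63 genes at 80% identity or more over at least 50% of their length and 200 bases. Beside Eif4a-ps4 they held few reads, 4 and 3 of them on a copy of Eef1g.

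The other pairs did not pass the test, and their intervals show what these depths could resolve. Eif1b held 5.60% and 6.65% of the reads of Eif1 and Eif1b. Eif1ax held 55.6% (44.1 to 66.5) and 66.7% (57.5 to 74.7) of those of Eif1a and Eif1ax. Eif4e2 held 42.7% and 44.8% beside Eif4e, and Eif4e3 held 24.4% and 15.1%. In each of these pairs the intervals of the libraries overlapped.
Eif4g2 held 89.9% and 87.5% of the reads of Eif4g1 and Eif4g2. Eif4g3 held 29.4% (16.8 to 46.2) and 45.2% (33.4 to 57.5) beside Eif4g1, on few reads. Eif4ebp2 held 2.97% and 8.33% beside Eif4ebp1, but 3 and 16 of its 3 and 18 reads were on single-exon models outside the annotation.

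**Figure D2:**
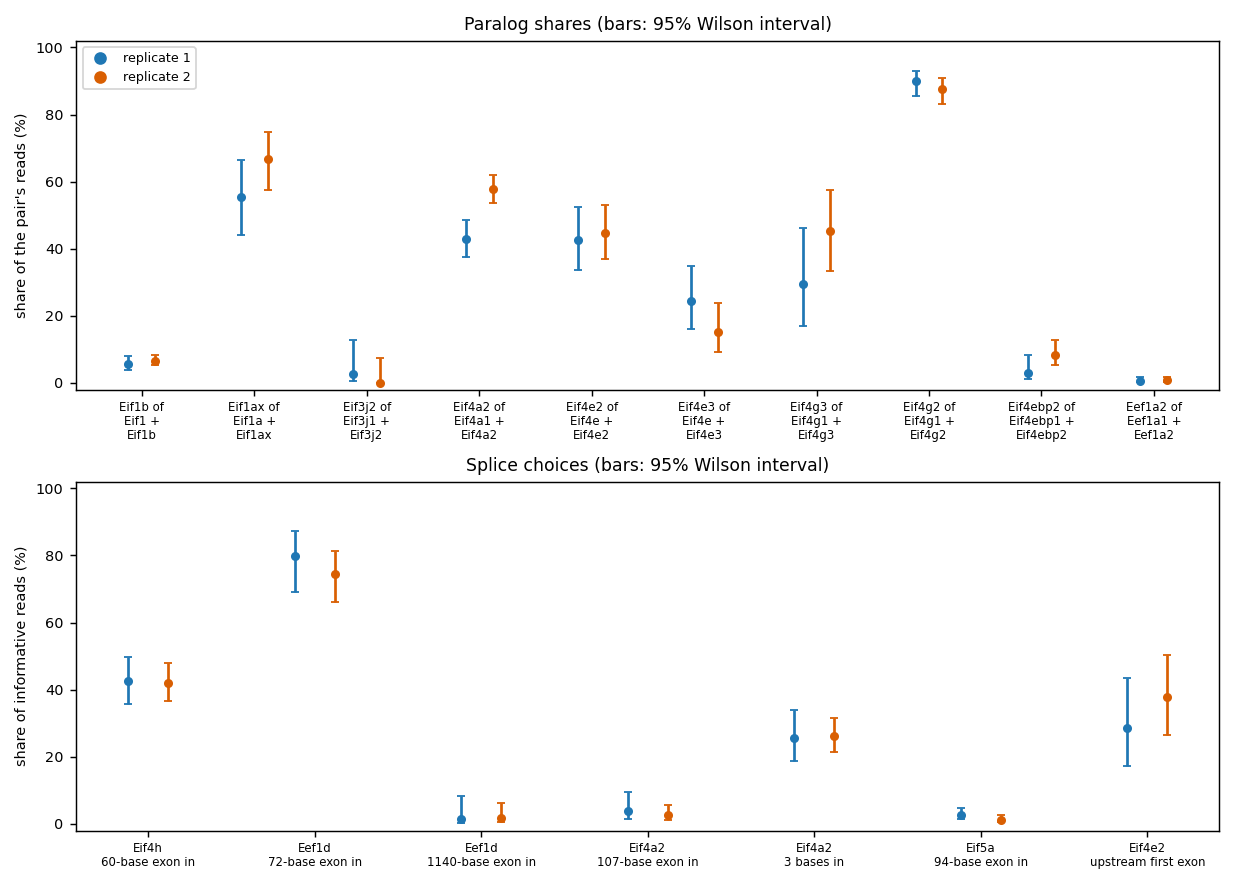
Share of reads in percent for replicate 1 (blue) and replicate 2 (orange), with 95% Wilson intervals as bars. The upper panel gives the second gene's share in the 10 pairs tested, in which the intervals are apart only for Eif4a2, and the lower panel gives splice choices, in which the intervals overlap in all 7.

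Between the libraries, 59 of the 63 genes had at least 10 reads in all and entered an exact binomial test (two-sided, reads against library totals) with adjustment over all 9271 genes tested. One gene passed, 1.69% of those tested, beside 2.15% of all genes tested, so the share of calls was near that of all genes at this setting. That gene was Eif4g2 (chr7:111067750-111083030, minus strand), with 213 reads in replicate 1 and 238 in replicate 2, 536.3 against 334.3 CPM. It was 1.60-fold higher in replicate 1 (log2 ratio -0.68, 95% interval -0.95 to -0.41, adjusted p = 0.00013, exact binomial test). On its annotated transcripts alone it had 159 and 156 reads.

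Among genes with at least 30 reads, the other large differences did not pass. Toward replicate 1 they were Eif4e3 (log2 ratio -1.27), Eif4enif1 (-0.75), Eif2b4 (-0.72) and Eif2b2 (-0.65). Toward replicate 2 they were Eef2k (0.74), Eef2kmt (0.65), Eif4g3 (0.60), Eif2d (0.41) and Eif4a2 (0.38). The adjusted p of these 9 genes was between 0.21 and 0.79 by the exact binomial test. Below that minimum of reads, Eif4ebp2 had a log2 ratio of 1.56 on 3 and 18 reads (adjusted p = 0.41, exact binomial test). Eif4a1 (log2 ratio -0.48, adjusted p = 0.053) and Eef1a1 (-0.27, adjusted p = 0.061) lay just short of the threshold in that exact test, and their calls depended on the scaling and on the models counted.
The level in replicate 2 was below that of replicate 1 in 37 of the 59 genes, 62.7% beside 47.9% of all genes tested. The median log2 ratio was -0.11 against 0.03 over all genes tested. An unadjusted p under 0.05 was reached by 13 of the 59 (22.0%) and by 11.5% of all genes tested. Among genes with at least 30 reads these shares were 21.4% and 14.4%, a smaller gap. The part of depth in the gap was not tested. Markers of other tissue moved between the libraries beside these values: the 8 liver genes summed to 390.3 CPM in replicate 1, where all 8 were read, and to 84.3 CPM in replicate 2, where 2 of 8 were read. Their part in the differences between libraries was not tested.

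**Figure D3:**
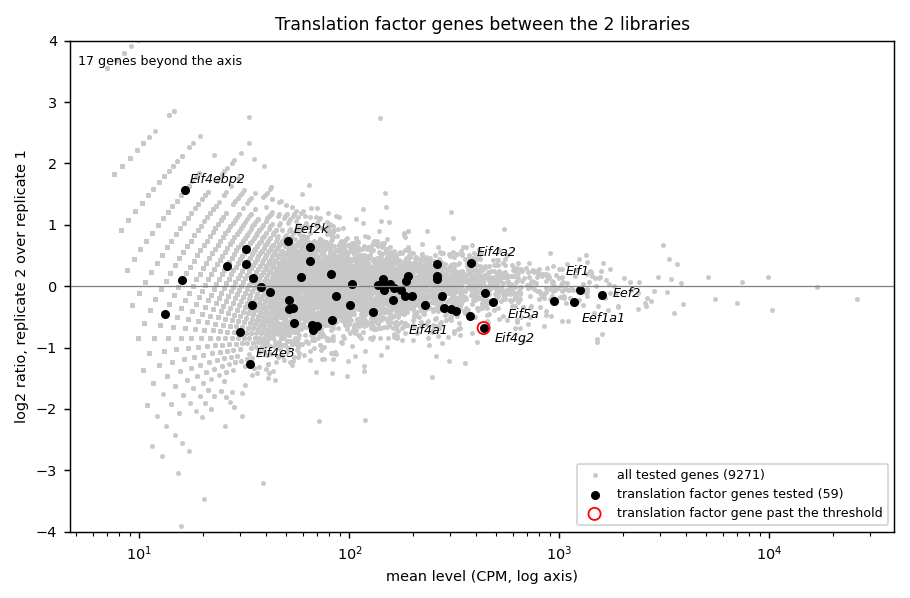
Log2 ratio of replicate 2 over replicate 1 against mean CPM (log axis) for all 9271 genes tested (grey) and the 59 translation factor genes tested (black), with the gene past the threshold circled in red. Eif4g2 is the circled gene at -0.68, and the 4 highest genes lie slightly below 0.

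The reads also showed which transcripts were used. Of the 63 genes, 40 had at least 20 reads on annotated transcripts in each library, and in 4 of them (10%) a second annotated transcript held at least 20% in each library. Over all genes at that depth the share was 10.4%, so the translation factors were near the background. The 4 genes were Eif4h, Eif4a2, Eef1d and Eif4e2. Transcript use did not pass the test between libraries in any of the 18 genes with more than 1 annotated transcript read, with Fisher's exact test (two-sided) adjusted over all genes, and none of the 18 had an unadjusted p under 0.05. The background of this test was 0.161% of 1866 genes.

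Eif4h was read in 2 forms at similar levels. The 60-base exon shown above was present in 78 of 183 reads that resolve it in replicate 1, 42.6% (35.7 to 49.9), and in 123 of 292 in replicate 2, 42.1% (36.6 to 47.9). It adds 20 codons, 248 in Eif4h-205 against 228 in Eif4h-201. The shares differed by far less than their intervals. These splice choices were picked after the transcript counts were seen, so they are described without a test.

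Eef1d, the delta subunit of the exchange complex, mostly carried its 72-base exon. It was present in 59 of 74 reads in replicate 1, 79.7% (69.2 to 87.3), and in 91 of 122 in replicate 2, 74.6% (66.2 to 81.5). The exon adds 24 codons, 281 in Eef1d-218 against 257 in Eef1d-205. A long form with a further exon of 1140 bases (chr15:75902679-75903818), annotated with 660 codons, was read 1 time in replicate 1 and 2 times in replicate 2, 1.54% and 1.74% of the reads that resolve it.

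In Eif4a2 the acceptor choice shown above adds 1 codon. The form with 3 more bases held 31 of 121 reads in replicate 1, 25.6% (18.7 to 34.1), and 73 of 280 in replicate 2, 26.1% (21.3 to 31.5). A further exon of Eif4a2 begins at position 23112351 of chromosome 16 and is annotated as 107 bases long in a transcript of the nonsense-mediated decay class. Counting every model that used its acceptor, it was included in 14 of 114 reads in replicate 1, 12.3% (7.46 to 19.6), and in 39 of 266 in replicate 2, 14.7% (10.9 to 19.4). It was an internal exon in 10 and 18 of these reads and the last exon in 4 and 21. The annotated form of 107 bases, with both of its introns, was in 4 and 6 reads. These were 3.85% (1.51 to 9.47) and 2.58% (1.19 to 5.50) of the reads with that form or with the exon skipped. The shares of the 3-base acceptor and of the exon that begins at 23112351 had overlapping intervals between libraries. Use of that exon as the last exon was the less frequent form in replicate 1 and the more frequent in replicate 2, on few reads and with no test.

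Eif4e2 used alternative first exons. The upstream first exon of Eif4e2-206 was joined in 12 of 42 reads in replicate 1, 28.6% (17.2 to 43.6), and in 23 of 61 in replicate 2, 37.7% (26.6 to 50.3), the others using the first-exon donor of Eif4e2-204. The coding sequence has 245 codons from the upstream exon and 240 from the other. In Eif5a an extra 94-base exon ahead of the coding start was rare, in 10 of 374 and 7 of 554 reads.

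Reads on annotated transcripts made up 83.7% of the 63 genes' reads in replicate 1 (Wilson interval 82.7 to 84.6) and 83.4% in replicate 2 (82.6 to 84.2). In other protein-coding genes the share was 76.9% in each library. Among genes with at least 50 reads in each library the gap was smaller, with a median share over genes of 89.8% in 31 translation factors and 87.9% in 1595 other protein-coding genes. These shares are described without a test. Genomic models, which lie within a gene without its splicing, were 1.77% and 2.04% of the reads of translation factors against 5.70% and 5.54% in other protein-coding genes. Suffix models, which keep the 3′ end of an annotated intron chain and lack its 5′ part, were 8.98% and 9.40% against 6.75% and 6.76%. Of 487 and 827 such reads in the 63 genes, Eef2 held 133 and 285, and Eef1a1 held 89 and 158. This contrast therefore rests largely on 2 genes, and the share without them was not computed. Of the reads on annotated transcripts, 99.4% and 99.5% were on transcripts of the protein-coding class, beside 98.0% and 97.9% in other protein-coding genes.

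Suffix models were frequent in the most read elongation factors. In Eef2 the full chain of 14 exons was read 491 times in replicate 1 and 712 times in replicate 2, 74.2% and 66.1% of the gene's reads. Another 133 and 285 reads, 20.1% and 26.5%, were suffixes, and all 12 possible lengths from 2 to 13 exons were read in both libraries. The most frequent was the suffix of 8 exons, with 38 and 96 reads, followed by that of 5 exons with 16 and 44 and that of 6 exons with 15 and 37.
In Eef1a1 the full chain of 8 exons had 410 and 594 reads, 80.2% and 78.0%, and suffixes had 89 and 158 reads, 17.4% and 20.7%. All 6 shorter lengths were read in both libraries, the most frequent being that of 7 exons with 30 and 44 reads. In Eif1, which has 4 exons, suffixes were 1.58% and 0.57%, and in Eif5a they were 1.72% and 2.27%. The files do not say whether a suffix is a transcript that started downstream or a read that stopped short, and this was not tested.

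**Figure D4:**
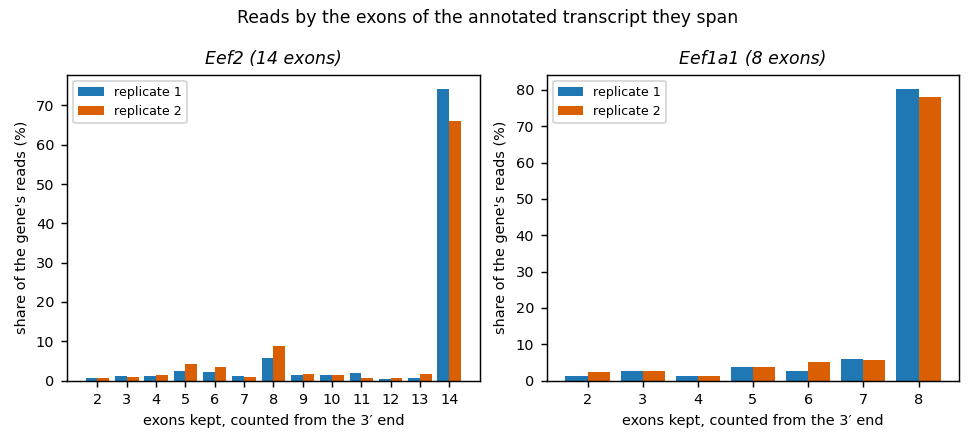
Share of the gene's reads in percent by the number of exons kept from the 3′ end, for Eef2 (left) and Eef1a1 (right) in replicate 1 (blue) and replicate 2 (orange). The last bars are the full chains, 74.2% and 66.1% in Eef2, and every shorter length is present, with the 8-exon suffix the most frequent in Eef2.

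Among genes with at least 50 reads in each library, the lowest shares on annotated transcripts over both libraries were those of Eef2 (69.2%), Eif4g2 (69.8%), Eif4b (71.6%), Eif5 (72.1%) and Eif4a1 (74.1%). The share was lower at greater length of the transcript with the longest coding sequence. Over the 24 genes with at least 30 reads and a transcript under 2000 bases it was 88.8% of pooled reads, over the 21 of 2000 to 4000 bases 79.4%, and over the 11 above 4000 bases 70.6%. Across these 56 genes Spearman's rho was -0.39, as a description across genes that share both libraries.
The scaffolds were the extreme. Eif4g1, with 32 exons in Eif4g1-204, had 1 and 0 reads on annotated transcripts of 24 and 34, and Eif4g3 had none of 10 and 28. The longest suffix of the 32-exon chain of Eif4g1 kept 29 exons. The low levels of Eif4g1 and Eif4g3 thus rest almost wholly on models outside the annotation. Only a part of these were suffixes. Suffixes of the 32-exon chain held 11 and 16 of the Eif4g1 reads, and single-exon models held 7 and 7. In Eif4g3, suffixes of a 34-exon chain held 6 and 15 reads, and single-exon models held 2 and 2.

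**Figure D5:**
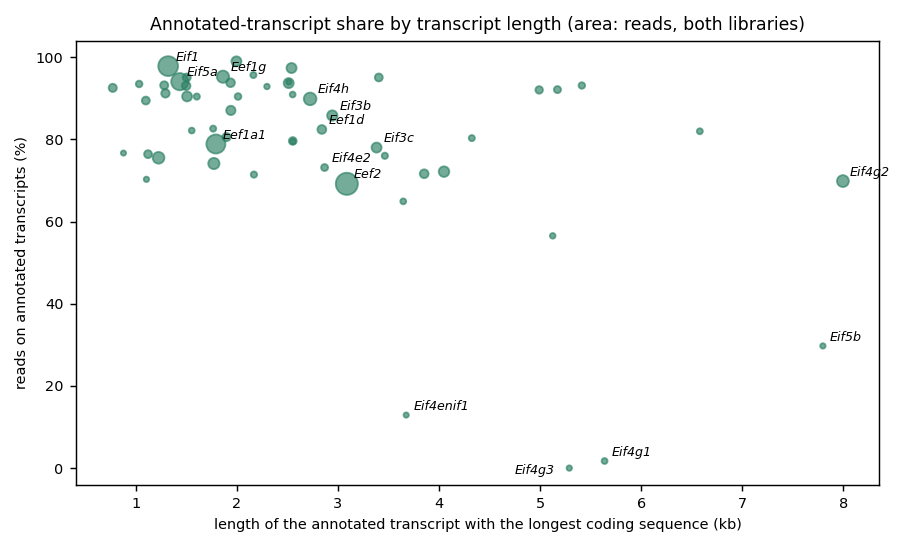
Percent of reads on annotated transcripts, both libraries pooled, against the length in kilobases of the annotated transcript with the longest coding sequence, for the 56 genes with at least 30 reads, with point area by reads. The genes under 2 kb lie above 70%, and Eif4g1, Eif4g3, Eif4enif1 and Eif5b lie at the bottom.

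Spliced models outside the annotation numbered 685 intron chains in the 63 genes, of which 136, 19.9%, were read in both libraries. Another 478 of the 685 had 1 read in all and could not be read in both. The share read in both was not computed for other genes. These 136 held 482 of the 735 such reads in replicate 1 and 820 of 1224 in replicate 2. Of 337 incomplete matches to annotated chains, 94 were read in both. So were 25 of 185 new combinations of annotated splice sites and 17 of 163 chains with an unannotated site. In these classes 199, 140 and 139 chains had 1 read in all, so the shares do not rank how often chains recur. The 10 with the highest smaller count were all suffixes: 3 of Eef2, 4 of Eef1a1, and 1 each of Eif4g2 (21 exons, 19 and 34 reads), Eif3c (20 exons, 14 and 26) and Eif5 (11 exons, 14 and 13). The Eif4g2 chain was not a suffix of Eif4g2-213, its most read annotated transcript, whose own 21-exon suffix had 1 and 2 reads. Of chains with an unannotated site, the most read in both was a 12-exon chain of Eif4a2 with 3 and 9 reads, whose intron from 23112462 to 23113166 leaves the exon that begins at 23112351 from a donor 4 bases beyond the annotated one.

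Other genes of translation that the symbols do not cover were taken from a list of 43 symbols, of which 42 were in the annotation, all with reads. Of the 41 tested between libraries, 1 passed, 2.44% beside 2.15% of all genes. This was Pdcd4, which binds eIF4A and blocks it, with 12 reads in replicate 1 and 63 in replicate 2, 30.2 against 88.5 CPM, 2.83-fold higher in replicate 2 with 0.5 added to each count (adjusted p = 0.017, exact binomial test). The highest of the list were Tpt1, a translationally controlled gene (558.9 and 691.0 CPM), Paip2, an inhibitor of poly(A)-binding protein (400.3 and 439.6), and Mknk2, a kinase of eIF4E (347.5 and 304.8). They were followed by the mitochondrial elongation factor Tufm (178.8 and 186.8), the stress transcription factor Atf4 (168.7 and 115.2) and the mitochondrial exchange factor Tsfm (105.7 and 120.8).

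A start-site pyrimidine run, known in mRNAs of many translation genes, was looked for in the RefSeq promoter table on GRCm38.p6, which held 50 of the 63 genes. The run was C followed by 4 bases of C or T, on the sense strand, at the annotated start. It was at the start in 2 of 50 genes (4.0%), Eif3f and Eif2s3x, beside 2.49% of all 27025 genes of the table, and it began within 5 bases of the start in 12 of 50 (24.0%) beside 18.5%. With a run of 4 bases it was at the start in 8.0% beside 3.69%, which is 4 genes. The counts are small, no test was made, and the annotated start is not a start measured in these libraries. The windows below show 15 bases before and 15 from the start onward, for the 2 genes and for Eef1a1. Capitals mark the whole stretch of C and T that holds the run. Counted in bases from the start, the stretch began at -4 in Eif3f, -1 in Eif2s3x and -5 in Eef1a1.
Eif3f (chr7:108934400-108934429, plus strand): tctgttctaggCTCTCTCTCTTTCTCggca
Eif2s3x (chrX:94212637-94212666, minus strand): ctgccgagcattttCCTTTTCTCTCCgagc
Eef1a1 (chr9:78481710-78481739, minus strand): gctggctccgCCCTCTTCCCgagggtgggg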

How the data were processed

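Long-read RNA sequencing of 2 adrenal gland libraries was used. The counts are whole reads per transcript model as deposited, per the file headers assigned on mm10 to GENCODE M21 transcripts and, library by library, to models named by TALON. Aligner and versions: not given in the sources used here. Counts of all models of a gene were summed, and ERCC control RNAs were left out. CPM values were computed from the deposited counts.

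The members, groups, pairs and lists were chosen with earlier results of these data known. Genes with at least 10 reads were compared by the exact binomial test and called at a Benjamini-Hochberg adjusted p under 0.05. For log2 ratios 0.5 was added to both counts. Pairs and transcript use were compared by Fisher's exact test, the latter where each library had 20 or more reads on the gene's annotated transcripts. Spliced models were matched by their intron chain, strand and chromosome. Splice choices were counted over all models that contain the deciding introns. Pseudogenes were aligned with blastn. The binomial test was tested on simulated data.

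The text names the 12 highest genes, the lowest of each group, the pairs, genes past a threshold, the 5 largest ratios in each direction among genes with at least 30 reads, genes with a second transcript in use, the 5 lowest annotated shares, the 10 most read models outside the annotation and the 6 highest other translation genes. Genes named beyond this, such as single subunits and Eif4a-ps4, were named after their values were seen. Alternatives were annotated transcripts alone, no single-exon models outside the annotation, TMM scaling, other read minimums, other denominators, other cutoffs for transcripts and start-site runs, and either library alone. Depth was 397176 and 712032 reads on annotated genes. Wilson and exact intervals, the limit of 3 reads and p-values cover counting error only, since reads without molecular identifiers are not independent molecules. Software was Python 3.11.15 with scipy 1.17.1, pandas 2.3.3 and numpy 2.4.6, and R 4.3.3 with edgeR 4.0.16 for the TMM factors.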

Additional observations from a re-analysis of the deposited data

How the results depend on the processing

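The count of genes differing between libraries rested on small margins. It was 1 as reported and with no minimum of reads or with protein-coding genes alone. It was 3 on annotated transcripts alone (Eef1a1, Eef2 and Eif4g2), 2 without single-exon models outside the annotation (Eif4a1 and Eif4g2), 3 with TMM scaling and 3 with at least 30 reads (both Eef1a1, Eif4a1 and Eif4g2). In these 4 settings the members called were 5.56%, 3.45%, 5.08% and 5.36% of those tested, beside 2.31%, 2.22%, 2.22% and 3.4% of all genes, so there the share was above that of all genes. Eif4g2 passed in all 7 settings, with adjusted p from 1.9e-05 to 0.00037, and every gene called in any of them was higher in replicate 1. TMM scaling moved all log2 ratios by -0.048. The cause of these changes was not tested. The other translation genes gave 1 call, Pdcd4, in each of the same 7 settings. The pair of Eif4a1 and Eif4a2 passed in all 4 settings run for pairs. The share of annotated-gene reads held by the 63 genes was 1.41% on annotated transcripts alone, and the Eef1a2 share of eEF1A reads was 0.86% there. Without Eef2, Eif1 and Eef1a1 the annotated-transcript share was 84.5%. With a cutoff of 30% in place of 20%, 1 gene, Eif4h, had a second transcript in use, 2.5% of 40 beside 5.04% of all genes. Start-site runs of 4 bases were found in 8.0% of the 50 genes beside 3.69% of all genes of the table. With either library alone, the 63 genes held 1.24% to 1.37% of reads, Eef1a2 0.58% to 0.78% of eEF1A reads, Eif4a2 43.0% to 57.7% of its pair, and annotated transcripts 83.4% to 83.7%. Tests between libraries cannot be run on 1 library. No paired analysis was possible because there is only 1 group. Depth limits the genes at or under 3 reads in a library, among them Eef1a2, Eif2ak2, Eif2ak3 and Eif3j2.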
